A study of Mus musculus with 6 samples.

Results

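The heat shock proteins and their DnaJ co-chaperones were followed across 6 Illumina bead arrays of mouse blastocysts. Members were taken from the platform annotation as probes with 1 gene symbol that begins with Hspa, Hspb, Hspd, Hspe, Hsph, Hsp90, Dnaja, Dnajb or Dnajc, or that is Stip1, Hsf2, Bag3, Ahsa1, Cct2 to Cct5, Cct6a, Cct7 or Cct8, with Hspbap1 and Hspbp1 left out. The rule uses no measured value, but it was set with earlier results of these data known. This gave 147 probes of 77 genes among the 45281 probes and 19057 named genes of the array. Of these, 84 probes of 57 genes were kept for testing because in at least 1 group both arrays read above background (detection p-value under 0.05), as were 17677 probes of 9857 genes in all. Hsf1 and Hsp90ab1, which the rule also names, had no probe with 1 symbol in the annotation used and were not analysed here.

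Chaperones bind unfolded or partly folded proteins and keep them from aggregating. HSP70 proteins do so in cycles of ATP hydrolysis that DnaJ proteins start and that nucleotide exchange factors such as the HSP110 proteins and Bag3 end, and Stip1 passes clients on from HSP70 to HSP90. The CCT ring folds actin and tubulin, the Hsp60 and Hsp10 ring works in mitochondria, and Hspa5, Hsp90b1 and several DnaJ proteins work in the endoplasmic reticulum. In mouse embryos, the inducible HSP70 genes are known among the early transcripts of the embryonic genome, and heat shock factors bind repeats of a short element in the promoters of inducible members.

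The embryos came from superovulated CD-1 females, given 5 IU of PMSG and, 44 h later, 5 IU of hCG, and mated, with the day of the plug counted as day 1 post coitum. The uterus group held blastocysts flushed from the uteri of untreated pregnant females. The ICI group held those from the uteri of females given 0.5 µg per mouse of a compound that the labels name only ICI. The oviduct group came from oviducts ligated at day 4 post coitum, the day that the labels also give for its collection, and the time spent under ligation is not stated. The labels place 70 h after hCG in a sentence that fits either the ICI treatment or the flushing, and the series text gives day 3.5 for all groups. Each array held RNA of 1 pool of 100 to 120 whole embryos, amplified before labelling, and each group had 2 arrays. Nothing in the labels tells whether replicate pools were collected from different females, and the p-values measure the spread between these arrays, which may be technical. A pool holds trophectoderm and inner cell mass together, so that fewer cells of a type and less RNA per cell cannot be told apart.

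All 10 blastocyst markers looked at, among them Cdx2, Krt8, Pou5f1 and Nanog, were above background on every array. They differed between the groups, with a median of -0.30 for oviduct minus uterus, where 3 of 10 were above 0, of 0.02 for ICI minus uterus and of 0.50 for ICI minus oviduct. Their summed linear signal was 38032 and 34803 in the oviduct group, 44298 and 41479 in the uterus group and 41517 and 42792 in the ICI group. None passed the adjusted threshold used below. The oviduct arrays were the least alike. The root mean square SD between the 2 arrays of a group was 0.44 log2 units over all kept probes in the oviduct group, against 0.25 in the uterus and 0.21 in the ICI group, and over the chaperone genes it was 0.47, 0.29 and 0.19. Single arrays also differed in genes of other cells. Gdf9, an oocyte growth factor, read 11.12 on uterus replicate 2 and between 6.44 and 7.71 elsewhere. Ovgp1, the oviductal glycoprotein, read 6.52 and 8.35 in the oviduct pools and between 4.68 and 5.43 elsewhere, and Dcn, a stromal proteoglycan, read 6.14 and 8.32 in the oviduct pools and between 4.38 and 4.75 elsewhere. Of the 9 oviduct epithelium markers 3 were kept, and Foxj1, Tekt1, Dynlrb2, Ccdc39, Dnah9 and Pax8 were not. Their summed linear signal was 217 and 507 on oviduct replicates 1 and 2 and between 138 and 165 on the other arrays. Of the 8 stromal and muscle markers 3 were kept, with summed signals of 155 and 426 against 105 to 129, and Lum, Col1a1, Col1a2, Col3a1 and Myh11 were not. Of the 7 blood and immune markers on the array 4 were kept, with summed signals of 521 and 2609 in the oviduct pools and 617 to 1577 elsewhere. Ptprc, C1qb and Alas2 of that list were not kept. Of the 7 uterine epithelium markers 5 were kept, with summed signals of 3063 and 3334 in the oviduct group, 5865 and 5448 in the uterus group and 4733 and 5395 in the ICI group, and Prap1 among them read 10.19 and 8.76 in the uterus group and between 4.52 and 5.08 elsewhere. The 4 oocyte markers kept summed to 4197 on uterus replicate 2 and to between 249 and 599 on the others. The part of these cells, and of the shift in blastocyst markers, in the results below was not tested.

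The first comparison set embryos held in the oviduct against embryos in the uterus. Most detected chaperone genes read higher in the oviduct embryos, by small amounts. Of the 57 genes, each taken at its brightest kept probe, 45 had a higher mean in the oviduct group (78.9%), against 48.6% of all 9857 genes. Their median difference was 0.26 on the log2 scale, against -0.02 over all genes and -0.30 over the 10 blastocyst markers. In 22 chaperone genes both oviduct arrays were above both uterus arrays, and in 4 both were below, whereas 24% and 26.3% of all genes lay apart in these directions. No chaperone probe passed the test of limma across all kept probes at a Benjamini-Hochberg adjusted p under 0.05, a threshold that 9 of all probes passed (0.0509%). At an unadjusted p under 0.05 there were 15 chaperone probes of 84, all of them higher in the oviduct embryos, which is 17.9%. The background for either direction was 18.5%, and 9.39% for higher values alone, so that the chaperones were not called more often than other probes but were called in 1 direction. The 15 probes belonged to 10 genes, which were Hspa2, Hspa1b, Hspa5, Hspa8, Hsp90aa1, Hspe1, Hspb8, Dnajb9, Dnajc8 and Dnajc12. Of these, Hspa8 was counted only through a probe other than its brightest.

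By array, the chaperone genes did not all peak in the same oviduct pool. Of the 57 genes, 24 peaked in the first oviduct pool and 20 in the second, while uterus replicates 1 and 2 held the peak of 6 and 1 genes and ICI replicates 1 and 2 that of 1 and 5. The lowest value fell on uterus replicate 1 for 20 genes and on ICI replicate 2 for 17. These counts were not made over all genes, so no background stands beside them. The oviduct arrays also had the widest spread over all kept probes, with a root mean square SD of 0.44 against 0.25 (uterus) and 0.21 (ICI). With each gene centred on its mean over the 6 arrays, the median over the 57 genes was 0.20 and 0.09 in the oviduct pools, -0.11 and -0.04 in the uterus pools and -0.07 and -0.10 in the ICI pools. The CCT ring and the HSP90 pair were highest on oviduct replicate 1, with centred medians of 0.44 and 0.59 there and of -0.02 and 0.04 on oviduct replicate 2. The small heat shock proteins and the Dnajb genes were highest on oviduct replicate 2, at 0.56 and 0.33, against 0.02 and near 0 on oviduct replicate 1.

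**Figure D1:**
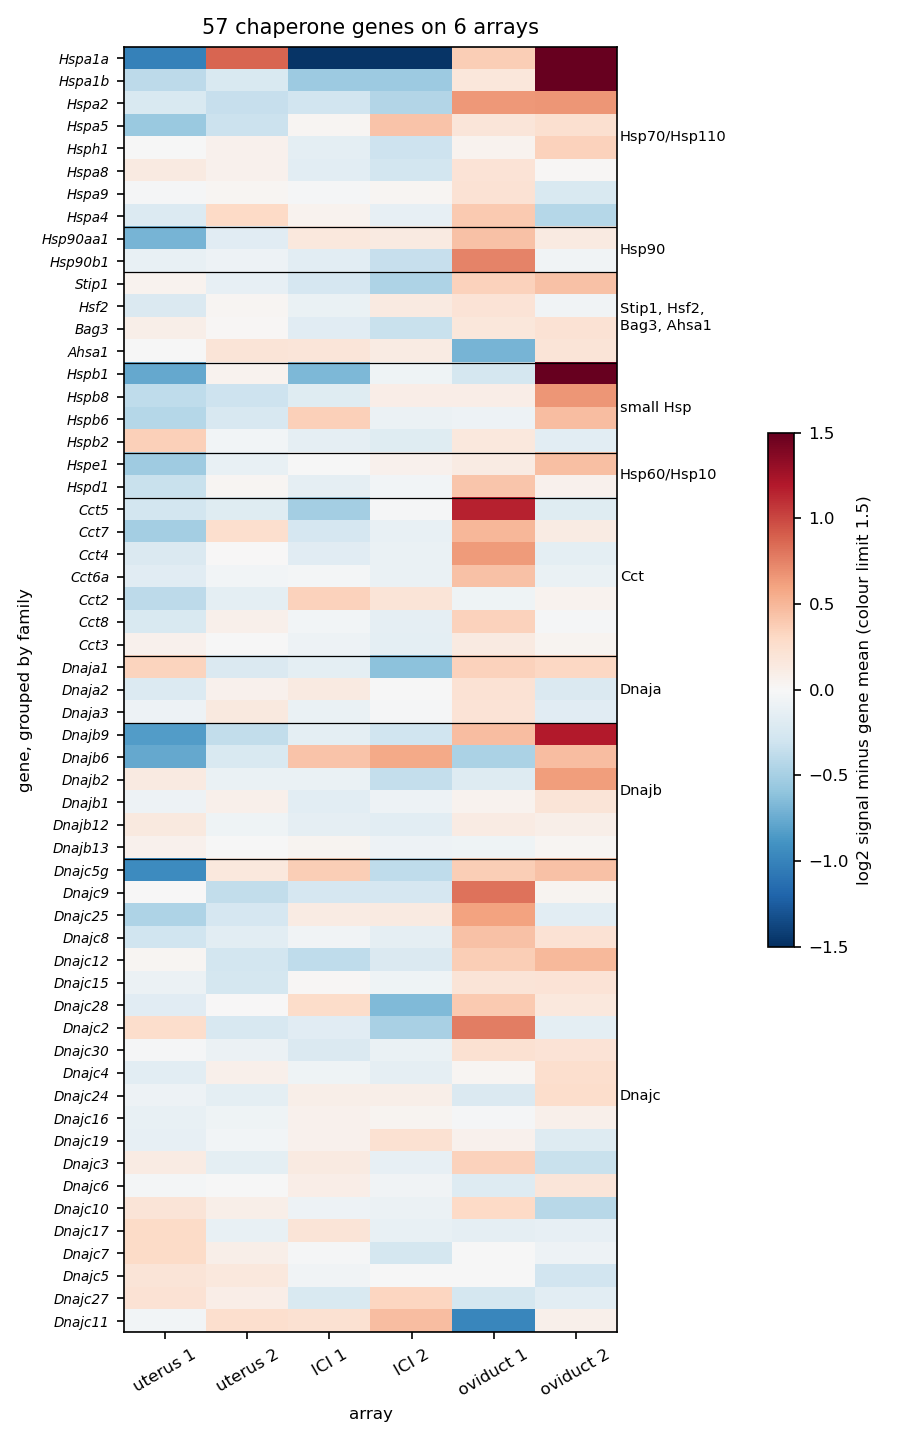
Each of the 57 detected chaperone genes (rows, grouped by family) on each of the 6 arrays (columns), as the log2 signal minus the gene's mean over the 6 arrays, with the colour scale ending at 1.5 log2 units either way. The oviduct columns hold most of the high values, on replicate 1 for Hsp90b1 and most Cct genes and on replicate 2 for Hspa1a, Hspb1 and Dnajb9.

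The HSP70 and HSP110 family had 14 genes on the array, of which 8 were kept. Hspa2, a cytosolic HSP70 best known for its role in male meiosis, was the member with the smallest p in this comparison. Its probe ILMN_1223285 read 8.32 and 8.33 in the oviduct pools, 7.44 and 7.33 in the uterus pools and 7.38 and 7.24 in the ICI pools. The oviduct pools were close together and apart from the other 4 arrays, while the uterus and ICI arrays overlapped. The difference from the uterus was 0.94 with a standard error of 0.17, or 1.92-fold, and its adjusted p in limma was 0.0874. The other kept probe of the gene differed by 0.60 in the same direction, with 6.31 and 6.57 in the oviduct pools and 6.10 and 5.58 in the uterus pools. Because every group had 2 arrays, a gene's standard error is the same for all 3 comparisons.

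The 250 bases before the annotated start of Hspa2 are shown because it is the member that stood furthest above its spread. They held no match to the heat shock or endoplasmic reticulum stress elements described further on, and a CCAAT box on the opposite strand began 29 bases before the start. The stretch is chr12:76404120-76404369 on the plus strand of GRCm38.p6, from RefSeq, with no part in capitals.
Hspa2: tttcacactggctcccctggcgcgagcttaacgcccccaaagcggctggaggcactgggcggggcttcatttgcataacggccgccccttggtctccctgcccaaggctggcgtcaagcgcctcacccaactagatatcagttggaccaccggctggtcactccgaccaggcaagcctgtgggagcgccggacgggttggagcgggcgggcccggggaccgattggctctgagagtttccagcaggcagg

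Hspa1a and Hspa1b encode the inducible cytosolic HSP70 and are neighbours on chromosome 17, with annotated starts 12918 bases apart. They share 247 of the 250 bases before their starts, and probes may not tell transcripts of such similar genes apart. The brightest of the 3 probes of Hspa1a read 6.14 and 8.49 in the oviduct pools, 4.75 and 6.64 in the uterus pools and 4.30 on each ICI array. At this probe the gene was above background on both oviduct arrays, on 1 of the uterus arrays and on neither ICI array. The oviduct mean was 1.62 above the uterus mean with a standard error of 0.83, and the arrays of these groups overlapped. Its second kept probe read 5.03 and 5.68, 4.64 and 5.75, and 5.17 and 4.67 in the same order of groups, a difference of only 0.16, and was above background on ICI replicate 1 too. The brightest probe of Hspa1b read 5.16 and 6.54 in the oviduct pools, 4.60 and 4.76 in the uterus pools and 4.45 on each ICI array, and only the oviduct values were above background. The oviduct mean at this probe was 1.71-fold above the lowest signal detected on the uterus arrays. Oviduct replicate 2 set most of that bound, which replicate 1 alone does not reach. The probe was kept through the oviduct group only. The fit gave the probe an adjusted p of 0.209. Its other probe, which was not kept, was above background on oviduct replicate 2 and uterus replicate 2, with linear signals of 180 and 96.4. At the brightest probe of both genes oviduct replicate 2 was the highest array, whereas the second kept probe of Hspa1a was highest on uterus replicate 2.

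Their promoters each hold 1 pair of inverted heat shock units, shown here in capitals because the pair is the same in both genes. In GRCm38.p6 the stretch of Hspa1a is chr17:34972238-34972275 and that of Hspa1b is chr17:34959320-34959357, both on the minus strand, and the element began 104 bases before the start in each.
Hspa1a: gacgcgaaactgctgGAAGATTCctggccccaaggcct
Hspa1b: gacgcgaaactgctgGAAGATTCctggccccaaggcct

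Hspa5, the HSP70 of the endoplasmic reticulum, read 6.22 and 6.27 in the oviduct pools, 5.47 and 5.70 in the uterus pools and 6.06 and 6.46 in the ICI pools. The uterus arrays were the lowest and did not overlap with either of the other groups. The oviduct embryos were 0.65 above the uterus embryos with a standard error of 0.21 and an adjusted p of 0.182. Hspa8, the constitutive cytosolic HSP70, read 14.13 and 13.94 in the oviduct pools against 14.06 and 13.98 in the uterus pools at its brightest probe, a difference of 0.01. Its other 2 probes disagreed, with differences of 0.80 and -0.27. Hspa9, the mitochondrial HSP70, differed by -0.01 with a standard error of 0.20, and oviduct replicates 1 and 2 lay on either side of the uterus arrays at 13.65 and 13.21 against 13.42 and 13.46, with 13.41 and 13.46 in the ICI pools. Hsph1, an HSP110 protein and nucleotide exchange factor of HSP70, read 12.68 and 12.96 in the oviduct pools, 12.61 and 12.69 in the uterus pools and 12.48 and 12.32 in the ICI pools. The oviduct and uterus arrays overlapped, with a difference of 0.17, and that of its relative Hspa4 was -0.06. The 6 members of the family that were not kept, Hspa12a, Hspa12b, Hspa13, Hspa14, Hspa1l and Hspa4l, include Hspa1l, known from testis.

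**Figure D2:**
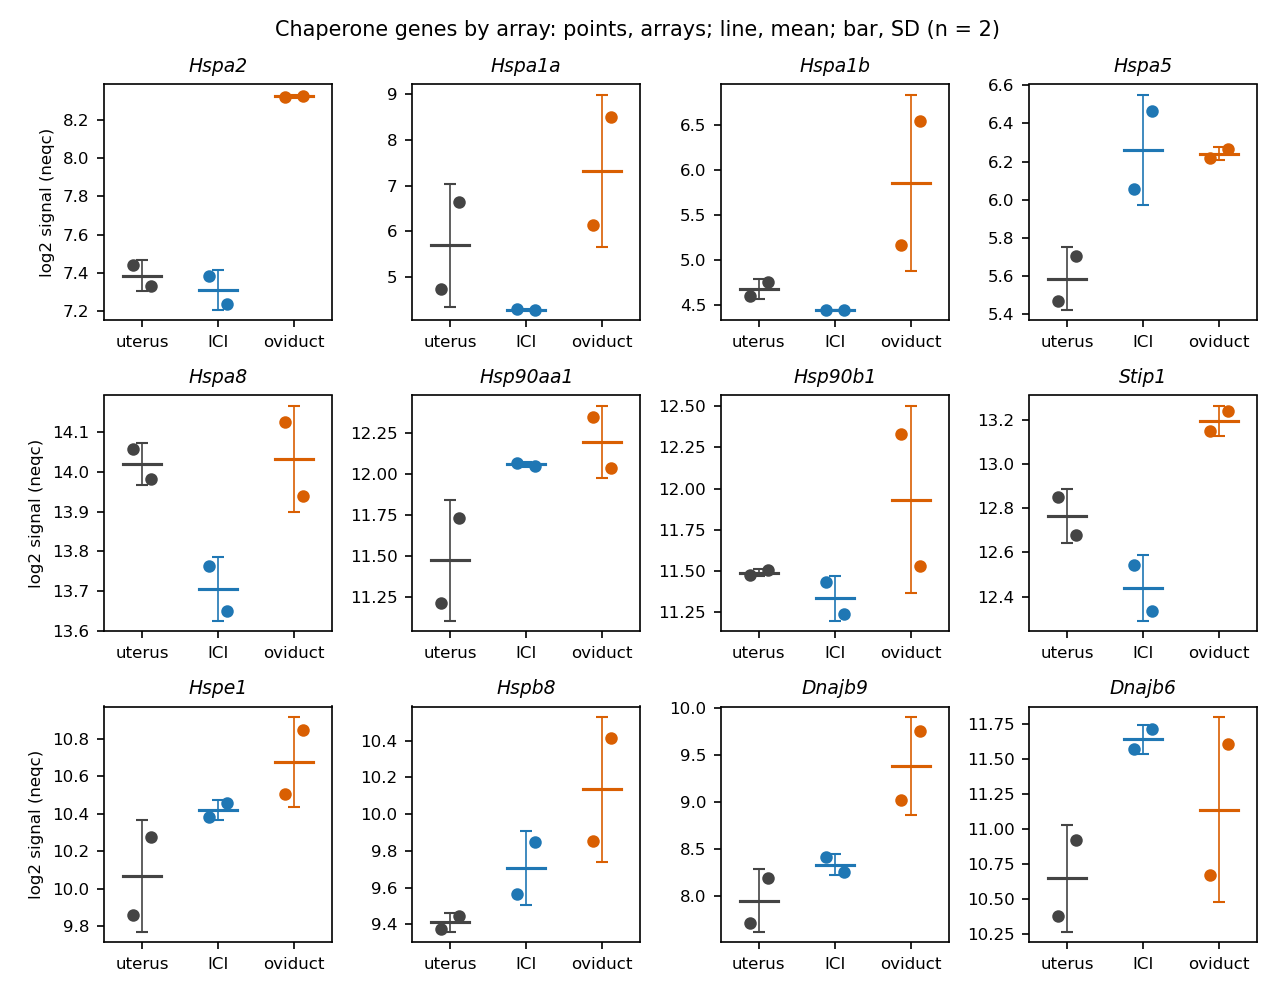
Normalized log2 signal of 12 chaperone genes at their brightest probe, with a point for each array, a line for the group mean and a bar for the SD of the 2 arrays, on a separate vertical scale for each gene. Hspa2, Stip1 and Dnajb9 lie higher on both oviduct arrays than on the other 4, while Hspa5 and Hsp90aa1 are lowest on the uterus arrays.

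Of the HSP90 genes with a named probe, Hsp90aa1 is the inducible cytosolic form and Hsp90b1 the form of the endoplasmic reticulum. Hsp90aa1, probe ILMN_2668319, read 12.35 and 12.04 in the oviduct pools, 11.21 and 11.73 in the uterus pools and 12.07 and 12.05 in the ICI pools. The uterus arrays were both below the other 4. The oviduct embryos were 0.72 above the uterus embryos with a standard error of 0.23, or 1.65-fold, at an adjusted p of 0.185, and its second probe differed by 1.00. Hsp90b1 read 12.33 and 11.53 in the oviduct pools against 11.47 and 11.50 in the uterus pools and 11.43 and 11.24 in the ICI pools. Its difference of 0.44 had a standard error of 0.28, and oviduct replicate 1 carried most of it.

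Stip1, which joins HSP70 to HSP90, read 13.15 and 13.24 in the oviduct pools with probe ILMN_2603953, 12.85 and 12.68 in the uterus pools and 12.55 and 12.33 in the ICI pools. The 3 groups did not overlap, in the order oviduct, uterus, ICI. The step from uterus to oviduct was 0.43 with a standard error of 0.18 and an adjusted p of 0.277. Bag3, a nucleotide exchange factor that also serves protein disposal, had the same order at 12.37 and 12.41, 12.29 and 12.22, and 12.04 and 11.87, and its oviduct and uterus means differed by 0.14. Ahsa1, which activates the ATPase of HSP90, read 9.99 and 10.87 in the oviduct pools, 10.68 and 10.88 in the uterus pools and 10.87 and 10.81 in the ICI pools, so that oviduct replicate 1 stood below the rest. Its mean difference of -0.35 therefore came from 1 array, and it became 0.09 without that array. Hsf2, a heat shock factor active in development, read 7.39 and 7.13, 6.97 and 7.23, and 7.09 and 7.33 in the order oviduct, uterus, ICI. It differed by 0.16 between oviduct and uterus, and its groups overlapped.

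Likeness was described by Pearson's r between genes over the 6 arrays, a number that also carries what all genes of an array share. The members most like Hspa2 were Dnajc30, Dnajc12 and Stip1 (r of 0.93, 0.93 and 0.92). Those most like Hsp90aa1 were Dnajc25, Hspa5 and Hspd1 (0.89, 0.85 and 0.80). Those most like Stip1 were Bag3, Hspa2 and Dnajc12 (0.96, 0.92 and 0.92). Hspa2 and Stip1 thus ranked among each other's nearest members, whereas Hsp90aa1, which was also high in the ICI embryos, did not.

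Of the 8 small heat shock genes, which hold unfolded proteins without ATP, Hspb1, Hspb2, Hspb6 and Hspb8 were kept. Hspb8, a partner of Bag3, read 9.86 and 10.41 in the oviduct pools, 9.37 and 9.44 in the uterus pools and 9.57 and 9.85 in the ICI pools. The oviduct values were above the other 4, with oviduct replicate 1 barely above ICI replicate 2, and the difference from the uterus was 0.73 with a standard error of 0.24 and an adjusted p of 0.19, with 0.52 at the second probe. Hspb1, the inducible small heat shock protein, read 7.93 and 9.90 in the oviduct pools against 7.43 and 8.25 in the uterus pools and 7.51 and 8.12 in the ICI pools. Oviduct replicate 2 stood alone and replicate 1 lay within the range of the uterus, so that the difference of 1.08 had a standard error of 0.63. Hspb6, at 8.05 and 8.58 against 7.69 and 7.88, differed by 0.53 without overlap and Hspb2, at the edge of detection, by -0.16.

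The promoter of Hspb1 is shown because it holds a pair of heat shock units at 2 places, in capitals. The stretch is chr5:135887787-135887844 on the plus strand of GRCm38.p6.
Hspb1: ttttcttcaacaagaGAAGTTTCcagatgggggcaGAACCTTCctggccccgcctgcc

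Hspd1 and Hspe1 encode Hsp60 and Hsp10, the ring and lid of the mitochondrial folding chamber, and lie head to head with starts 215 bases apart. Hspe1 read 10.51 and 10.85 in the oviduct pools, 9.86 and 10.28 in the uterus pools and 10.38 and 10.46 in the ICI pools. Both oviduct arrays were above the other 4. The difference from the uterus was 0.61 with a standard error of 0.22 and an adjusted p of 0.22. Hspd1 read 13.02 and 12.66 in the oviduct pools, 12.27 and 12.63 in the uterus pools and 12.47 and 12.56 in the ICI pools at its brightest probe. Its oviduct and uterus arrays did not overlap there, with a difference of 0.39, and the other probe differed by 0.02.

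All 7 genes of the CCT ring looked at here were detected on every array. Each had a higher mean in the oviduct than in the uterus embryos, and their median difference was 0.28, but only Cct2 did not overlap. Oviduct replicate 1 set the pattern for Cct5, which read 7.03 and 5.70 in the oviduct pools against 5.60 and 5.70 in the uterus pools and 5.37 and 5.86 in the ICI pools. Cct4 read 12.61 and 11.82, 11.75 and 11.98, and 11.80 and 11.88 in that order. Without that array the difference of Cct4 was -0.04. Cct6a read 13.63 and 13.10, 13.02 and 13.15, and 13.17 and 13.10. Cct7 read 7.10 and 6.72, 6.09 and 6.85, and 6.34 and 6.48. Cct8 read 12.61 and 12.25, 12.03 and 12.34, and 12.21 and 12.12. In these 3 genes as well, oviduct replicate 1 was the highest array, and oviduct replicate 2 lay within the range of the uterus arrays. Cct3 read 12.75 and 12.66, 12.69 and 12.61, and 12.54 and 12.47. Cct2 read 5.72 and 5.84 in the oviduct pools, and its other values are given with the ICI comparison. Differences among the 7 ran from 0.06 for Cct3 to 0.72 for Cct5, and their smallest adjusted p was 0.408.

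Among DnaJ proteins, the Dnaja genes, whose products work in the cytosol and in mitochondria, differed little. Dnaja1, Dnaja2 and Dnaja3, the last of mitochondria, differed by 0.26, 0.07 and -0.02, and the arrays of the groups overlapped in all 3. Of the 12 Dnajb genes 6 were kept. Dnajb9, a DnaJ protein of the endoplasmic reticulum that binds Hspa5 and is induced when unfolded proteins build up there, had the second highest difference of all members. It read 9.02 and 9.75 in the oviduct pools, 7.72 and 8.19 in the uterus pools and 8.41 and 8.26 in the ICI pools. The oviduct arrays were above the other 4, and the ICI arrays were just above the uterus arrays. The difference was 1.43 with a standard error of 0.29, or 2.70-fold, at an adjusted p of 0.101. The second probe differed by 1.21 at an adjusted p of 0.0874. Dnajb1, the main cytosolic partner of inducible HSP70, differed by 0.12 with a standard error of 0.18. It read 11.92 and 12.06 in the oviduct pools, 11.80 and 11.94 in the uterus pools and 11.71 and 11.79 in the ICI pools.

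Of the 25 Dnajc genes 21 were kept, and 9 were higher and 4 lower without overlap, against 24% and 26.3% of all genes. Dnajc12, a cytosolic partner of HSP70, read 6.03 and 6.14 in the oviduct pools, 5.69 and 5.38 in the uterus pools and 5.27 and 5.44 in the ICI pools, and the oviduct mean was 0.55 above the uterus mean. Dnajc8, found with splicing factors, was 0.55 higher at its brightest probe and 0.78 at the other. Dnajc9, a histone chaperone, was 0.61 higher, Dnajc15, of the mitochondrial import motor, 0.38, and Dnajc30, of mitochondria, 0.27. The 4 genes below the uterus arrays without overlap were Dnajc5, Dnajc7, Dnajc17 and Dnajc27. Dnajc5, the cysteine string protein of secretory vesicles, read 10.52 and 10.24 against 10.73 and 10.69 in the uterus and 10.48 and 10.52 in the ICI pools, a difference from the uterus of -0.33 in the oviduct embryos. Dnajc7, which binds both HSP70 and HSP90, read 10.98 and 10.91 against 11.27 and 11.07, and Dnajc27, a GTPase with a J domain, read 6.23 and 6.34 against 6.72 and 6.59, with 6.26 and 6.82 in the ICI pools. Dnajc11, a mitochondrial protein, had the lowest difference at -0.56 with a standard error of 0.35. It read 7.94 on oviduct replicate 1 and 9.01 on replicate 2 against 8.89 and 9.18 in the uterus pools. The ICI pools read 9.15 and 9.38. The 3 probes of Dnajc11 did not share a sign. Dnajc3 and Dnajc10, of the endoplasmic reticulum, differed by 0.01 and -0.20.

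Leaving out each array in turn changed how far several members stood from the uterus. Without oviduct replicate 1, Hspa2 differed by 0.94, Dnajb9 by 1.80, Hspa1b by 1.86, Hspb1 by 2.07 and Hspb8 by 1.00 at the brightest probe. Over all fits without single arrays, Hspa2 ran from 0.88 to 1.00 and Dnajb9 from 1.06 to 1.80. Hspa1b ran from 0.48 to 1.86, Hspb1 from 0.09 to 2.07 and Hspb8 from 0.45 to 1.00. Each of these fits leaves 1 array in a group, which is assumed to vary like the arrays of the other groups. Median scaling in place of quantile normalization lifted the median of all genes by itself, to 0.22, and that of the chaperones to 0.48, with 51 of 57 genes above 0 against 71% of all genes. The chaperones were 0.28 above the median of all genes with quantile normalization and 0.26 with median scaling. This excess was 0.22 with the authors' log2 values, 0.21 with the mean over probes, 0.18 without background correction and 0.15 with no detection filter. It ran from 0.18 without uterus replicate 1 to 0.32 without uterus replicate 2.

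The second comparison set embryos from the uterus of ICI-treated mice against those of the normal uterus. The chaperones as a set did not stand apart from other genes. The median over the 57 genes was -0.04 against -0.06 over all genes, and 23 of them were above 0 (40.4%) against 40.5% of all. No probe of any gene passed the adjusted threshold, so the background was 0%. At an unadjusted p under 0.05, 9.23% of all probes and 5 chaperone probes (5.95%) were counted. For higher values alone the share of all probes was 5.71%. All 5, from Cct2, Dnajb6, Dnajc8, Hsp90aa1 and Hspa5, were higher in the ICI embryos. Dnajc8 was counted only through its second probe, which differed by 0.61, against 0.14 at its brightest probe. Both ICI arrays were above both uterus arrays in 14 genes and below them in 15, against 19.5% and 32.4% of all genes. The 5 probes became 0 without ICI replicate 2, 3 without ICI replicate 1, 1 without uterus replicate 1 and 13 without either oviduct array, and the median became 0.02 without uterus replicate 2.

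Hspa5 and Hsp90aa1, given above by array, were 0.67 and 0.59 higher than in the uterus, with standard errors of 0.21 and 0.23 and adjusted p of 0.535 and 0.539. These are close to their differences in the oviduct embryos, but both comparisons use the same uterus arrays, and uterus replicate 1 held the lowest value of either gene. Dnajb6, a DnaJ protein that keeps proteins from aggregating and is needed for chorioallantoic fusion in mice, read 11.57 and 11.72 in the ICI pools, 10.38 and 10.92 in the uterus pools and 10.67 and 11.61 in the oviduct pools. The ICI arrays were above both uterus arrays, and the oviduct arrays were spread between the groups. The difference from the uterus was 0.99 with a standard error of 0.34, or 1.99-fold, at an adjusted p of 0.535. Its 4 probes differed by between -0.10 and 0.99. Cct2 read 6.13 and 5.97 in the ICI pools and 5.39 and 5.64 in the uterus pools, a difference of 0.53. At their brightest probes the other 6 CCT genes differed by between -0.14 and 0.05. The second kept probe of Cct3, however, differed by 0.48, also without overlap.

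The inducible HSP70 genes read near background in the ICI embryos. The ICI minus uterus difference of Hspa1a was -1.40 at its brightest probe, with a standard error of 0.83 and an adjusted p of 0.622, and -0.27 at its second kept probe. At the brightest probe the ICI arrays and uterus replicate 1 were not above background, so that no fold is given, and at the second ICI replicate 1 and uterus replicate 2 were above it. The kept probe of Hspa1b was below background on all 4 arrays, and its other probe was above it on uterus replicate 2. Hspa8 read 13.76 and 13.65 in the ICI pools, below both uterus arrays by 0.32 on average at its brightest probe, whereas another probe was 1.05 higher. Stip1 and Bag3 were 0.33 and 0.30 lower without overlap. Dnaja1 read 5.20 and 4.73 against 5.69 and 5.13 (oviduct 5.69 and 5.66), Dnajc7 10.96 and 10.72 against 11.27 and 11.07, and Dnajc2, which sits on the ribosome, 10.63 and 10.33 against 11.07 and 10.57 (oviduct 11.58 and 10.66). Of these Dnajc7 did not overlap. Among the genes higher in ICI embryos without overlap, Dnajc25 read 6.40 and 6.41 against 5.82 and 6.02 (oviduct 6.88 and 6.12), and Hspb6 8.48 and 8.03 against 7.69 and 7.88. Hspa2, with a difference of -0.08, overlapped.

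**Figure D3:**
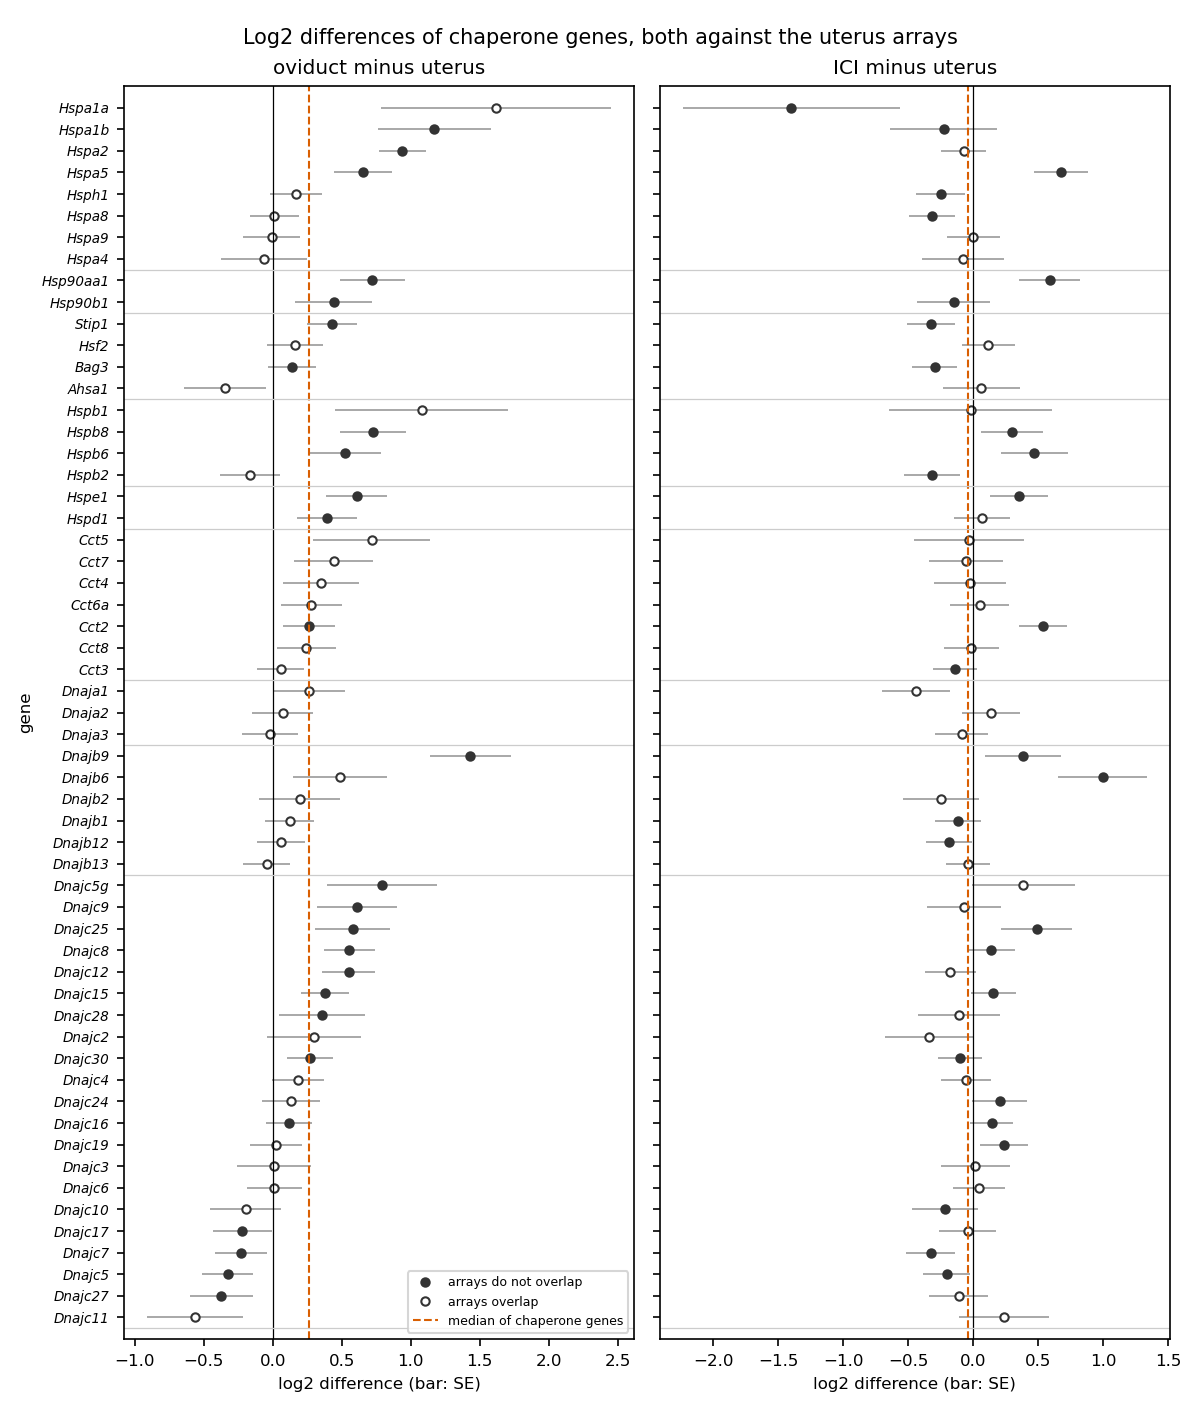
Log2 difference of each of the 57 chaperone genes from the uterus arrays, for the oviduct (left) and ICI (right) embryos, with bars of 1 standard error and the median of the genes as a dashed line; filled points mark groups whose arrays do not overlap, and the panels share the uterus arrays and have different horizontal scales. The median lies at 0.26 on the left and at -0.04 on the right.

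The third comparison set ICI against oviduct embryos. It shares its arrays with the other comparisons, so its values are given beside them and are no separate support. Chaperone genes were mostly lower in the ICI embryos, with a median of -0.24 against -0.04 over all genes and 16 of 57 above 0 (28.1%) against 46% of all. None of the 84 chaperone probes was among the 60 called at an adjusted p under 0.05 (0.339%). At an unadjusted p under 0.05 there were 11 (13.1%), 10 of them lower, against a background of 20.7% in either direction and 10.2% for lower values alone. The 10 lower probes came from Hspa2, Hspa1a, Hspa1b, Stip1, Bag3, Dnaja1, Dnajb9 and Dnajc12, and the 1 higher probe was the second probe of Dnajc19, of the mitochondrial import motor. Both ICI arrays were below both oviduct arrays in 26 genes and above in 4, against 29.6% and 23.8% of all genes.

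The difference for Hspa2 was -1.02 with a standard error of 0.17 and an adjusted p of 0.0677, the smallest of any member in any comparison. The difference for Stip1 was -0.76 at an adjusted p of 0.111, and for Dnajb9 it was -1.05 at 0.134. The brightest probes of Hspa1a and Hspa1b were not above background on either ICI array. Their oviduct means were 4.89-fold and 1.77-fold above the lowest signals detected on the ICI arrays, with adjusted p of 0.134 and 0.147 in limma. Oviduct replicate 2 was the higher array at both probes, and replicate 1 alone does not reach these bounds. The second kept probe of Hspa1a, above background on ICI replicate 1, differed by -0.43 and its arrays overlapped. The highest differences, of 0.79 for Dnajc11, 0.50 for Dnajb6, 0.41 for Ahsa1, 0.27 for Cct2 and 0.26 for Dnajc27, had adjusted p between 0.255 and 0.544. Without oviduct replicate 1 and without oviduct replicate 2 in turn, Hspa2 differed by -1.02 and -1.01 and Hspa1b by -2.09 and -0.71. The median over the chaperone genes became -0.16 without oviduct replicate 1. In an F-test over the 3 groups no chaperone probe passed, against 4 of all probes (0.0226%), and 14 (16.7%) had an unadjusted p under 0.05 against 18.9%.

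Genes that work with the members but lie outside the rule were read from lists chosen by function. Of 38 co-chaperones kept, 21 had a higher mean in oviduct than in uterus embryos, against 48.6% of all genes, and their median was 0.08. None passed the adjusted threshold. At an unadjusted p under 0.05, 5 were higher and 1 lower, against 9.26% and 10.3% of all genes at their brightest probe. St13, which binds HSP70, read 9.32 and 9.62 in the oviduct pools and 8.31 and 8.91 in the uterus pools. Vbp1, a prefoldin subunit that hands clients to the CCT ring, read 9.45 and 8.74 against 7.75 and 8.45. Fkbp4, an immunophilin bound to HSP90, read 13.92 and 13.64 against 13.24 and 13.29, and on the ICI arrays 13.02 and 13.02. Cdc37l1 was the lower gene, at 8.87 and 8.53 against 9.27 and 9.49. Sgta, Bag5 and Ppp5c, which bind HSP70 or HSP90, differed by -0.67, -0.30 and -0.30.

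Of 12 genes of the endoplasmic reticulum stress response kept, 9 had a higher mean in the oviduct than in the uterus embryos, against 48.6% of all genes, with a median of 0.21. In the ICI embryos 10 had a higher mean than in the uterus, against 40.5% of all genes, with a median of 0.18. None passed the adjusted threshold in either comparison. Creld2, induced by that stress, read 10.23 and 10.63 in the oviduct pools, 9.71 and 9.88 in the uterus pools and 10.37 and 10.05 in the ICI pools. Atf4, a transcription factor of the response, read 11.70 and 11.61, 11.11 and 11.34, and 11.34 and 11.44. In both genes the uterus arrays were the lowest group, as they were for Hspa5. Ddit3 and Herpud1, also targets of the response, differed from the uterus by -0.09 and -0.20 in the oviduct embryos.

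Promoters from RefSeq covered 250 bases before to 50 after each annotated start in GRCm38.p6. They were matched by gene identifier to 64 of the 77 genes, with 82 listed starts, and to 47 of the 57 detected genes. A pair of heat shock units was searched as GAANNTTC or TTCNNGAA, and a run of 3 units as GAANNTTCNNGAA or TTCNNGAANNTTC, which also counts as a pair, both on either strand. Pairs were found in 21 chaperone promoters (25.6%) against 15.1% of all 32851 promoters, and runs of 3 units in 6 (7.32%) against 0.603%. The runs belonged to Hspe1, Hspd1, Hsph1 and Dnajb6. Hsph1 and Dnajb6 were each counted at 2 listed starts. The head-to-head genes Hspe1 and Hspd1 share the same stretch, so the counted promoters are not independent. The endoplasmic reticulum stress element, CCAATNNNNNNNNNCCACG, was found in 3 (3.66%) against 0.119%, those of Hspa5, Hsp90b1 and Dnajc3. A match is a description of these letters and shows no binding.

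The runs of 3 units are shown for Hspe1 and Dnajb6, which read high in oviduct and ICI embryos respectively. The unit run is in capitals, and that of Hspe1 holds overlapping runs. The stretches are chr1:55088044-55088091 and chr5:29735837-29735879, both on the plus strand.
Hspe1: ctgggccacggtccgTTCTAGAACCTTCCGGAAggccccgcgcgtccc
Dnajb6: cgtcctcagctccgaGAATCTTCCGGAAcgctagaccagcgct

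The stress elements are shown because their 3 genes did not read alike. They lie at chr2:34772010-34772058 on the plus strand for Hspa5, at chr14:118937812-118937860 on the plus strand for Dnajc3 and at chr10:86705518-86705566 on the minus strand for Hsp90b1, where the element in capitals is on the opposite strand. Hsp90b1 held another copy further from the start.
Hspa5: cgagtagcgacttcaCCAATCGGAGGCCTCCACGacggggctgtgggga
Dnajc3: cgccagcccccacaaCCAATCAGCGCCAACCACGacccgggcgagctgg
Hsp90b1: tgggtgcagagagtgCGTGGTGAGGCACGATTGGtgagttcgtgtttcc

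Set beside the values, the 17 detected genes with a pair of heat shock units had a median oviduct minus uterus difference of 0.49, with 15 of 17 above 0, and the 30 without had 0.15, with 24 of 30 above 0. The corresponding medians for ICI minus uterus were -0.02 and -0.04. The 17 include Hspa1a and Hspa1b, which were kept through the oviduct group only and have nearly the same promoter. Hspe1 and Hspd1, which share a stretch, are among the 17 and among the 4 genes with a run of 3 units. The genes are thus not independent, and whether the motifs bear on the differences was not tested. The 4 genes with a run of 3 units had medians of 0.44 for oviduct minus uterus, with all 4 above 0, and 0.21 for ICI minus uterus, with 3 above 0, against 0.24 and -0.04 in the 43 genes without a run. Of the genes with the stress element, Hspa5 and Hsp90b1 were 0.65 and 0.44 above the uterus in the oviduct embryos and Dnajc3 0.01. Hspa2, Stip1 and Dnajb9, which lay apart from the uterus arrays, held none of these motifs in the windows searched.

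**Figure D4:**
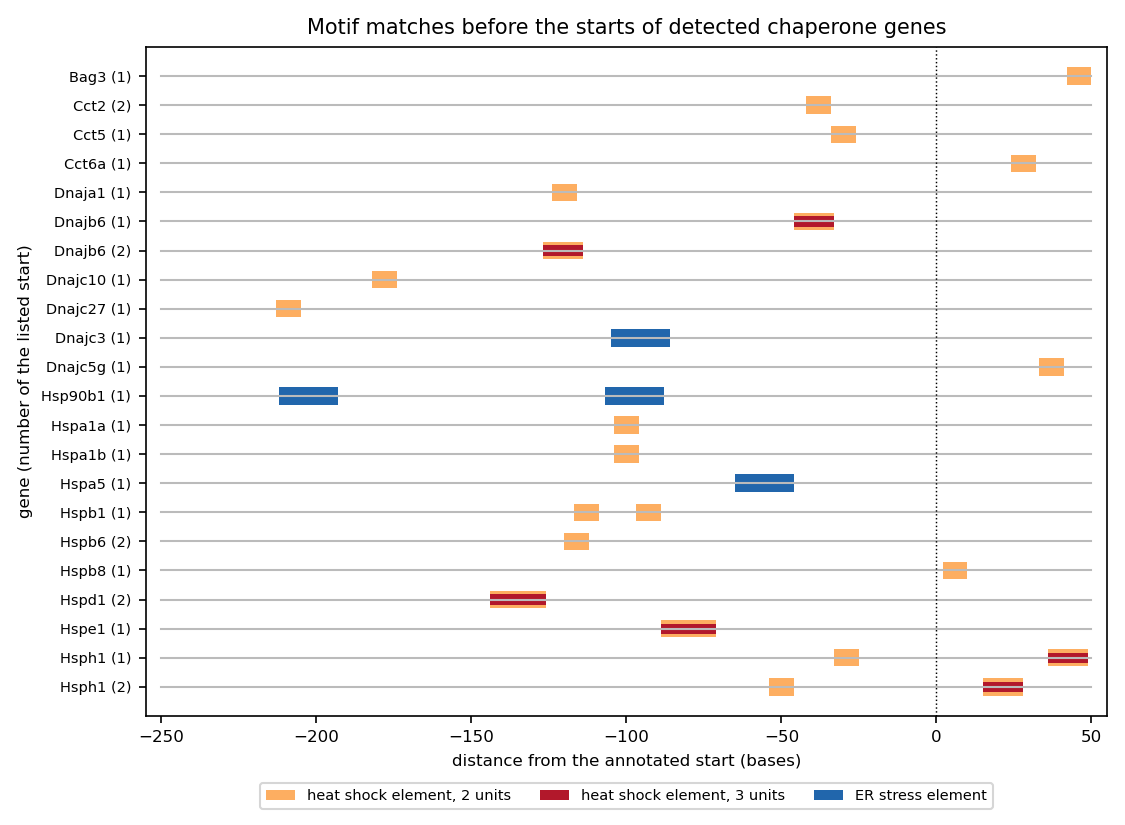
Places of motif matches in the promoters of detected chaperone genes, as the distance in bases from the annotated start (dotted line), with the number of the listed start after each gene's name. Pairs of heat shock units are orange, runs of 3 units red and endoplasmic reticulum stress elements blue; runs occur in Dnajb6, Hspd1, Hspe1 and Hsph1.

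Of the 77 genes, 20 were not above background in any group by the rule used. They were Dnajb3, Dnajb4, Dnajb5, Dnajb7, Dnajb8, Dnajb14, Dnajc1, Dnajc5b, Dnajc14, Dnajc18, the 6 HSP70 genes named above and Hspb3, Hspb7, Hspb9 and Hspb11. Of their 36 probes, 31 were detected on no array and 5 on 1 or 2 arrays. Kept genes had 27 further probes that were not kept. At the brightest probe, 51 of the 57 kept genes were above background on all 6 arrays. The exceptions were Hspa1a, Hspa1b, Hspb2, Dnaja1, Dnajc28 and Dnajc5g. The level of an undetected gene is bounded by the background of the array, so that a low level cannot be told from none.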

How the data were processed

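Pools of mouse blastocysts were measured on 6 Illumina arrays. Per the file headers, the authors deposited each probe's mean bead intensity by array, not normalized between arrays, with its bead standard error and bead number. A deposited detection p-value accompanies each intensity. The authors also deposited log2 values, for which no source used here states the steps. Compared with the intensities, these log2 values come out as the log2 intensity less 1 offset for the array and another for the probe, to within 0.00172. Their array medians ran from -0.11 to 0.08, and what the probe offset is centred on stays unknown. Sequencing depth does not apply; the number of arrays limits the precision, and 16525 to 18182 probes were above background per array.

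Signals were background-corrected, quantile normalized and log2-transformed by neqc of limma 3.58.1 in R 4.3.3 (offset 16). Kept probes (17677) were fitted with 3 group means, with 3 residual and 3.77 prior degrees of freedom, moderated by eBayes, with two-sided tests and Benjamini-Hochberg adjustment over all kept probes. A gene's value is that of its brightest kept probe. Levels of different probes were not compared. The fit was tested on simulated data. Names came from the platform annotation, in which 34885 probes have 1 symbol, 18 several and 10378 none. Promoter sequences are from RefSeq (GRCm38.p6), and plots used Python 3.11.15 with matplotlib 3.10.9. Members, gene lists and tests were chosen with earlier results of these data known. Genes given array by array are Hspa2, Hsp90aa1 and Stip1, the 5 of smallest p and the 5 highest and lowest differences in each comparison, and a list of classical heat shock and constitutive chaperones. Of the other lists, the 3 genes of smallest p per comparison are named. The alternatives tried were median scaling, no background correction, the authors' log2 values, other detection limits, fits of 2 groups, a replicate block, array weights, a variance trend, the mean over probes and leaving out each array.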

Additional observations from a re-analysis of the deposited data

How the results depend on the processing

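With all 6 arrays, no chaperone probe passed the adjusted threshold in any comparison under any setting run. No chaperone probe passed for ICI minus uterus with any single array left out. In the other comparisons and the F-test, chaperone probes passed only in fits without oviduct replicate 1 or 2. In both other comparisons probes of other genes passed in those fits as well. These fits have fewer arrays. Probes of all genes numbered 9 for oviduct minus uterus, and 38 with median scaling, 1 without background correction, 0 with the authors' values, 1 with no detection filter, 0 with only the 2 groups, 0 with array weights, 69 with a variance trend and 0 to 1516 without single arrays. For ICI minus oviduct the 60 became 20 with the authors' values, 4 with no filter, 0 with 2 groups, 11 with array weights, 102 with the trend and 0 to 2800 without single arrays. Chaperone probes at an unadjusted p under 0.05 for oviduct minus uterus (15) became 27 with median scaling, 24 with no filter, 9 with array weights and 6 to 27 without single arrays. For ICI minus uterus (5) they became 8 without background correction, 14 with no filter, 13 with 2 groups, 14 with array weights, 8 with the trend and 0 to 13 without single arrays. For ICI minus oviduct (11) they became 25 with median scaling, 17 with the authors' values, 19 with no filter, 21 with the trend and 6 to 29 without single arrays. The cause of these changes was not tested. The replicate block took probes of all genes to 0 for oviduct minus uterus and to 5 for ICI minus oviduct, and chaperone probes at an unadjusted p under 0.05 in the latter to 17. Same-numbered arrays deviated from their group means with correlations of 0.13, 0.23 and 0.07, not all above 0.1, so the numbers were not taken as a pairing.

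The chaperone median for oviduct minus uterus (0.26) was 0.48 with median scaling, 0.17 without background correction, 0.19 with the authors' values, 0.14 with no filter and 0.18 to 0.29 without single arrays. For ICI minus uterus (-0.04) it was 0.013 with the mean over probes and -0.069 to 0.020 without single arrays. For ICI minus oviduct (-0.24) it was -0.49 with median scaling, which put the median of all genes at -0.30 (0.22 for oviduct minus uterus), -0.12 with no filter and -0.28 to -0.16 without single arrays.

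Among the genes given array by array, 26 of 31 kept their sign for oviduct minus uterus in every setting run, 17 of 30 for ICI minus uterus and 19 of 30 for ICI minus oviduct. With median scaling, Hspa9 became 0.12 for oviduct minus uterus, Ahsa1 -0.021, Cct5 0.0048 and Cct6a -0.024 for ICI minus uterus, and Dnajc27 -0.0064, Hspa5 -0.24 and Hspa9 -0.16 for ICI minus oviduct. With the authors' values, Hspa8 became -0.080 for oviduct minus uterus, and Ahsa1 -0.039, Cct6a -0.042 and Hspd1 -0.0063 for ICI minus uterus. With the mean over probes, Cct3, Dnajc2, Hspa8 and Hspa9 became 0.17, 0.042, 0.29 and 0.023 for ICI minus uterus, and Cct3, Hspa8 and Hspd1 0.14, 0.10 and 0.57 for ICI minus oviduct. Without single arrays, oviduct minus uterus ran from -0.79 to 0.092 for Ahsa1, -0.043 to 0.74 for Cct4, -0.016 to 0.54 for Dnaja1, -0.082 to 0.11 for Hspa8 and -0.23 to 0.21 for Hspa9. ICI minus uterus ran from -0.034 to 0.16 for Ahsa1, -0.14 to 0.089 for Cct4, -0.28 to 0.22 for Cct5, -0.018 to 0.11 for Cct6a, -0.44 to 0.32 for Cct7, -0.17 to 0.14 for Cct8, -0.014 to 0.24 for Hsf2, -0.026 to 0.022 for Hspa9, -0.43 to 0.39 for Hspb1 and -0.11 to 0.25 for Hspd1. ICI minus oviduct ran from -0.031 to 0.85 for Ahsa1, -0.77 to 0.017 for Cct4, -0.50 to 0.032 for Cct6a, -0.024 to 0.54 for Dnajc27, -0.18 to 0.079 for Hsf2, -0.29 to 0.020 for Hsp90aa1, -0.18 to 0.22 for Hspa5 and -0.21 to 0.22 for Hspa9. The cause of these reversals was not tested. A slide block was not run because no file names a slide, and the 2-group fit was not run for the F-test.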

Other observations

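Genes with several probes gave a pattern that was noticed after the values were seen. Of 22 chaperone genes with over 1 kept probe, the probes of 7 differed in sign for oviduct minus uterus, 11 for ICI minus uterus and 9 for ICI minus oviduct. In Hspa8, Hspd1, Dnajb6 and Cct3, a second probe put the 6 arrays in the same order. It ran from oviduct replicate 1 through uterus replicates 1 and 2 and oviduct replicate 2 to the ICI replicates. That probe of Hspa8 read 11.58 and 13.79 in the oviduct pools, 12.60 and 13.31 in the uterus pools and 13.91 and 14.11 in the ICI pools. The probe of Hspd1 read 8.78 and 11.00, 9.42 and 10.31, and 11.29 and 11.41. That of Dnajb6 read 9.87 and 11.44, 10.60 and 10.81, and 11.62 and 11.65. That of Cct3 read 10.91 and 11.73, 11.26 and 11.38, and 11.73 and 11.87. For ICI minus uterus these probes differed by 1.05, 1.49, 0.93 and 0.48 in the order named. The brightest probes of Hspa8, Hspd1 and Cct3 differed by -0.32, 0.07 and -0.14. None of these second-probe ICI minus uterus differences passed limma's test over all kept probes, with adjusted p = 0.63, 0.56, 0.58 and 0.62.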
